A study of Arabidopsis thaliana with 12 samples.

Results

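The probe sets described here are those that read higher in seedlings of all 3 mutants, mbd4, mbd6 and mbd11, than in wild-type seedlings. A probe set belongs if its mean log2 intensity was at least 1 above the wild-type mean in each mutant, which is at least a doubling of intensity, and if every array of each mutant lay above the highest wild-type array. Affymetrix control probe sets were not considered, and 7 genes were left out by name: PDF1.2, PDF1.2b, AT2G43620, AT1G19530, AT1G33055, AT4G10270 and CML38. The rule found 81 probe sets, 5 of them among those named genes, which left 76 members of 22746 probe sets. Of the 76 members, 27 were assigned to 1 gene each and can be named, 2 were assigned to several genes and 47 had no gene assigned here.

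The members were selected on the measured differences between each mutant and wild type, so those differences are given as a description, with no test. The rule set no condition on the position, length or known role of the genes. It set none directly on the differences between the mutants or on the spread within a genotype. Both of those come from the array values that chose the members, so they are not independent of the selection. The 3 differences from wild type share the same 3 wild-type arrays.

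MBD proteins carry a methyl-CpG-binding domain, a fold that in its founding members recognises methylated cytosine in DNA. Plants have a family of them, and in Arabidopsis MBD6 binds methylated DNA while other family members differ in that ability. DNA methylation in plants silences transposons and some genes, and proteins that read it link the mark to chromatin and transcription.

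The study profiled whole seedlings of Arabidopsis thaliana, ecotype Col-0, grown for 10 days on MS medium, a standard plant growth medium. The groups are T-DNA insertion mutants mbd4, mbd6 and mbd11 and wild type, each with 3 biological replicates, and total RNA of each replicate was hybridised to a microarray with 1 colour. The labels give no other treatment, and they do not name the insertion alleles or say whether a second allele was used, so each mutant stands for the plants sampled under that name. No probe set was assigned to MBD4, MBD6 or MBD11 alone, so the mutated genes were not analysed here and the genotype labels were not checked by them. The labels call the replicates biological but do not say whether they came from separate sowings, so p-values measure the spread between these samples. In whole seedlings, a change in the number of cells of a type and a change in RNA per cell cannot be told apart.

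The mbd11 arrays stood apart from the rest before any member was considered. Their correlations with the other 9 arrays over all probe sets were 0.900 to 0.960, whereas the lowest correlation among those 9 was 0.979. The difference between the 3' and 5' probe sets of the plant control transcripts, which grows when RNA or label is shorter, was 1.98 to 2.58 on the log2 scale in mbd11, 1.2 to 1.30 in mbd6 and 1.17 to 1.5 in wild type. In mbd4 it was 1.08 and 1.15 on replicates 1 and 2 and 2.08 on replicate 3. The control probe set for 25S ribosomal RNA read 9.75, 9.61 and 5.69 on the mbd4 arrays and 7.79, 5.64 and 7.90 in wild type. It read 6.22 to 6.83 in mbd6 and 5.25 to 5.43 in mbd11. The interquartile range over all probe sets was 2.83 on replicate 2 of mbd11 and 3.58 to 3.94 on the other arrays. Green tissue markers were measured for 3 of 9 list genes, at levels of 11.2 to 13.7, which shows leaf tissue in the samples. PRK, an enzyme of carbon fixation, differed from wild type by 0.02 in mbd4, -0.42 in mbd6 and -1.24 in mbd11. RCA, the activase of the carbon-fixing enzyme, differed by -0.24, -0.32 and -1.03 in the same mutants, and LHCB4.1, a light-harvesting protein, by -0.08, 0.12 and -0.65. Root markers were measured for 3 of 8 list genes: PYK10, a root beta-glucosidase, differed by -0.09, -0.04 and -1.73, EXPA18 by 0.04, 0.55 and 1.08, and EXPA7 by 0.00, 0.19 and 0.17. Seed and flower markers were not measured by a probe set of their own. Whether these shifts had a part in the members' levels was not tested.

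Over all probe sets, 1.10% met the rule's criteria in mbd4, 2.17% in mbd6 and 4.87% in mbd11. By limma at an adjusted p under 0.05, 1.53% of probe sets were higher in mbd4 than in wild type, 4.0% in mbd6 and 20.4% in mbd11. The members passed that same threshold in 67, 74 and 75 of 76 cases in mbd4, mbd6 and mbd11, and nothing is read from these counts because the same differences chose the members. Members were higher than wild type by a median of 1.57 in mbd4, with a range of 1.01 to 3.96, by 1.77 in mbd6, with a range of 1.02 to 4.61, and by 1.66 in mbd11, with a range of 1.00 to 3.96. Over all probe sets the medians of the same log2 differences were -0.03, -0.03 and 0.12. The members' differences lay far from these medians because the rule required it.

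**Figure D1:**
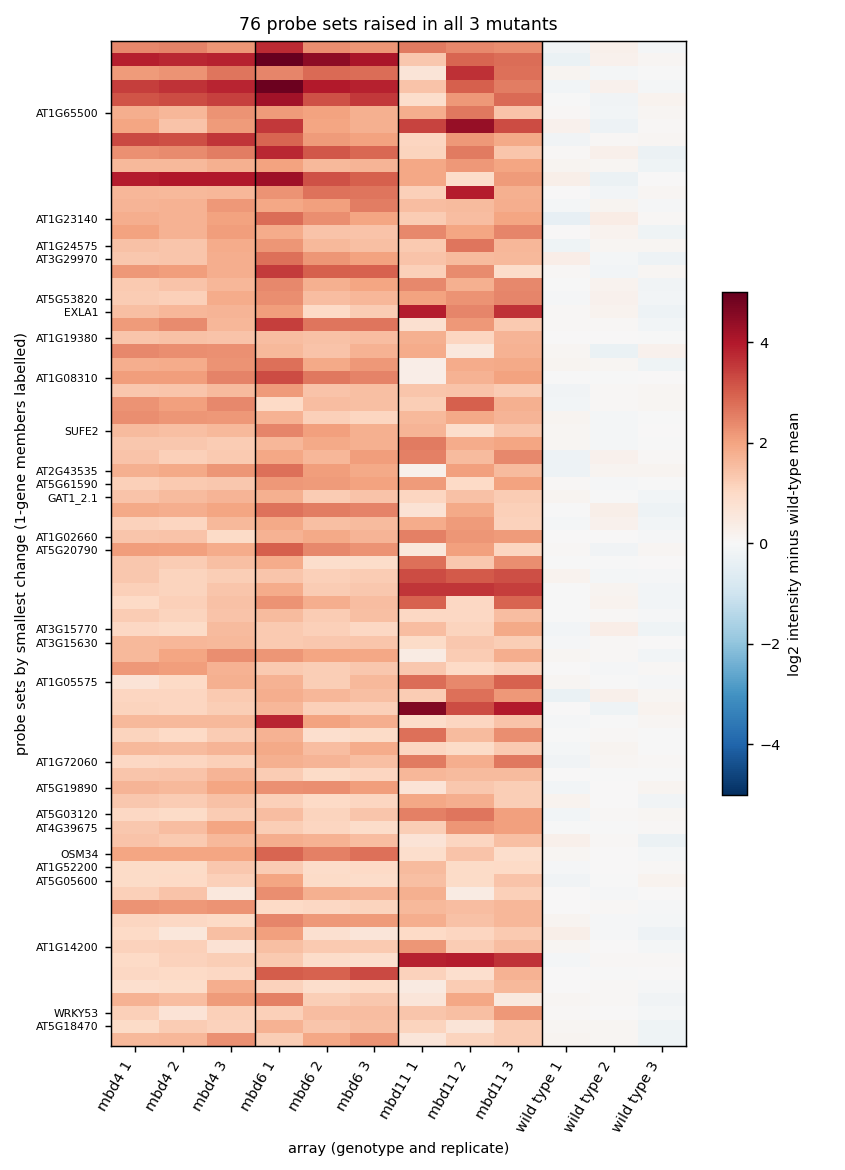
Log2 intensity minus the wild-type mean (colour) for the 76 members (rows, ordered by their smallest change over the 3 mutants) on each of the 12 arrays (columns, by genotype and replicate). The 9 mutant columns are red throughout, as the rule requires, and the darkest cells lie on different arrays for different members.

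The median wild-type level of members was 5.80 on the log2 scale, with a range of 3.38 to 9.19, and the median over all probe sets was 6.13. At the dim end, 6 members, or 7.89%, lay under 4 on all wild-type arrays, against 24.5% of all probe sets, and those 6 include AT3G29970, AT5G53820 and WRKY53. At the bright end, 20 members averaged at least 7 in wild type and 3 averaged at least 9. The gap between the lowest mutant array and the highest wild-type array was 0.09 to 1.94, with a median of 0.85.

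Roles could be given for 18 of the 27 named genes, from general knowledge of Arabidopsis and after the members were known, so the classes describe the members and were not tested. The class with the most genes was that of secreted or defence-type proteins, with 5. Lipid or ester hydrolases and lipid-binding proteins numbered 3 together, transcription factors 2, proteins of cofactor or nitrogen metabolism 2 and other membrane-associated proteins 2. A cell wall protein, an enzyme of jasmonate metabolism, a RING finger protein and a late embryogenesis abundant protein stood alone in their classes. No role is given for 9 genes. The gene symbols and synonyms of the annotation were also searched for functional words. Words for transcription factors matched 2 of 27 members, against 41 of the 13513 probe sets with 1 gene. They included DEWAX, a name of the member AT5G61590, so nothing is read from that count. Words for defensin, thaumatin, osmotin and pathogenesis-related proteins matched 1 member, against 6 probe sets. Words for extensin, expansin, xyloglucan and pectin matched 1 member, against 34. The 13 other classes of words had no member. Few genes carry a functional symbol, with 5 of the members (18.5%) and 1628 of all probe sets of 1 gene (12%) named by one, so this search sees only a small part.

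The secreted or defence-type group was higher in every mutant, with medians of 1.77 in mbd4, 2.24 in mbd6 and 1.10 in mbd11. OSM34, an osmotin-like relative of pathogenesis-related proteins, was the brightest named member, at 11.08, 11.09 and 11.09 on the mbd4 arrays, 12.01, 11.63 and 11.86 on the mbd6 arrays and 9.97, 10.55 and 9.98 on the mbd11 arrays, against 9.18, 9.13 and 9.0 in wild type. All 4 genotypes occupied separate ranges, with mbd6 highest and mbd11 closest to wild type. These levels are 3.96, 6.66 and 2.09 times the wild-type mean in mbd4, mbd6 and mbd11.

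AT5G19890, a class III peroxidase of the family that acts in the cell wall on hydrogen peroxide, gave 7.62, 7.56 and 7.89 in mbd4, 8.21, 8.26 and 8.01 in mbd6, with 6.63, 7.29 and 7.16 in mbd11, against 5.79, 5.95 and 6.04 in wild type. It had the same order of genotypes as OSM34, again with no overlap between any pair of groups. AT1G72060, annotated as a serine-type endopeptidase inhibitor, had a different order, with 7.30, 7.31 and 7.45 on the mbd4 arrays, 8.03, 7.96 and 7.74 on the mbd6 arrays and 8.86, 8.07 and 8.89 on the mbd11 arrays, against 6.07, 6.36 and 6.32 in wild type. Here mbd11 was highest and mbd4 closest to wild type.

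AT2G43535, a small cysteine-rich protein with a knottin fold, read 8.73, 8.86 and 9.18 in mbd4, 9.73, 9.05 and 8.86 in mbd6, with 7.19, 9.02 and 8.55 in mbd11, against 6.68, 7.08 and 7.10 in wild type. Replicate 1 of mbd11 lay only 0.09 above the highest wild-type array, which is the narrowest gap among the members. AT5G18470, a lectin related to mannose-binding curculin, lay just inside the rule, with 6.87, 7.16 and 7.06 on the mbd4 arrays, 7.65, 7.27 and 7.42 on the mbd6 arrays and 7.0, 6.55 and 7.17 on the mbd11 arrays, against 6.01, 6.02 and 5.68 in wild type. By means, OSM34, AT5G19890, AT2G43535 and AT5G18470 were ordered mbd6 over mbd4 over mbd11, and AT1G72060 mbd11 over mbd6 over mbd4.

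The 3 genes of the class of lipid or ester hydrolases and lipid-binding proteins were higher by medians of 1.85 in mbd4, 2.37 in mbd6 and 1.60 in mbd11. AT1G08310, an alpha/beta hydrolase, had 6.91, 6.93 and 7.30 in mbd4, 8.10, 7.44 and 7.29 in mbd6, with 5.15, 6.58 and 6.84 in mbd11, against 4.82, 4.82 and 4.84 in wild type. Its wild-type arrays lay close together, while its mbd11 arrays spread over more than 1.5, with replicate 1 near wild type. AT1G23140, a protein with a calcium-dependent lipid-binding C2 domain, had 7.64, 7.59 and 7.84 on the mbd4 arrays, 8.63, 8.16 and 7.82 on the mbd6 arrays and 7.10, 7.40 and 7.81 on the mbd11 arrays, against 5.43, 6.20 and 5.87 in wild type. AT1G02660, a class 3 lipase, had 6.44, 6.48 and 6.03 in mbd4, 6.79, 6.94 and 6.77 in mbd6, with 7.58, 7.29 and 7.20 in mbd11, against 5.08, 5.08 and 5.02 in wild type. The lipase was ordered mbd11 over mbd6 over mbd4 with no overlap between groups, whereas the hydrolase had its highest mean in mbd6.

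Both transcription factors among the members belong to families that respond to stress. AT5G61590, an ethylene response factor known as DEWAX that represses wax synthesis genes, reached 9.71, 9.80 and 9.86 on the mbd4 arrays, 10.67, 10.64 and 10.50 on the mbd6 arrays and 10.63, 9.49 and 10.52 on the mbd11 arrays, against 8.57, 8.46 and 8.48 in wild type. Replicate 2 of mbd11 lay below the mbd4 arrays, while the other mbd11 replicates lay with mbd6. WRKY53, a regulator of leaf senescence and of salicylate-linked defence, was much dimmer, at 5.04, 4.53 and 5.05 in mbd4, 5.04, 5.39 and 5.4 in mbd6, with 5.26, 5.36 and 6.04 in mbd11, against 3.91, 3.90 and 3.77 in wild type. Its difference of 1.01 in mbd4 only just met the rule, and the smallest difference was 0.999 with each array centred on its median and 0.995 after quantile normalization, both under the threshold. It also dropped out when probe sets with a mean under 5 were removed. Of 6 WRKY probe sets assigned to 1 gene, WRKY53 was the member, and by limma 1 of the 6 was higher in mbd4, 1 in mbd6 and 2 in mbd11, with 0 lower.

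Both genes of cofactor and nitrogen metabolism were higher by 1.28 to 2.08 across the 3 mutants. SUFE2, a sulphur acceptor protein of iron-sulphur cluster assembly, had 7.90, 7.83 and 7.96 on the mbd4 arrays, 8.76, 8.38 and 8.09 on the mbd6 arrays and 8.02, 7.22 and 7.73 on the mbd11 arrays, against 6.41, 6.24 and 6.34 in wild type. GAT1_2.1, a class I glutamine amidotransferase, had 7.12, 7.26 and 7.37 in mbd4, 7.45, 6.93 and 7.12 in mbd6, with 6.77, 7.15 and 6.96 in mbd11, against 5.83, 5.66 and 5.54 in wild type. The mutant ranges of GAT1_2.1 overlapped each other, and its means were 2.98, 2.81 and 2.43 times the wild-type mean in mbd4, mbd6 and mbd11.

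EXLA1, an expansin-like protein of the cell wall, had the largest difference of any named member in any mutant. Its levels were 6.90, 7.04 and 7.09 on the mbd4 arrays, 7.46, 6.39 and 6.67 on the mbd6 arrays and 9.32, 7.83 and 9.02 on the mbd11 arrays, against 5.47, 5.58 and 5.13 in wild type. Its mbd11 mean was 10.0 times that of wild type, against 3.06 times in mbd4 and 2.73 times in mbd6, and every mbd11 array lay above every other array. Of the 18 expansin probe sets of 1 gene, EXLA1 was the member, and 2, 4 and 7 were higher in mbd4, mbd6 and mbd11 by limma, with 0, 0 and 5 lower. EXLA3, the neighbouring gene of the same subfamily, differed from wild type by 0.08 in mbd4, 0.35 in mbd6 and 1.74 in mbd11.

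The remaining genes with a role were dim or of small change. AT5G53820, a late embryogenesis abundant protein of the kind that accumulates in drying tissue, had 4.81, 4.74 and 5.39 in mbd4, 5.85, 5.07 and 5.19 in mbd6, with 5.53, 5.78 and 5.98 in mbd11, against 3.46, 3.73 and 3.41 in wild type. AT3G29970, a membrane protein of the B12D family, had 5.01, 5.02 and 5.45 on the mbd4 arrays, 6.42, 5.87 and 5.68 on the mbd6 arrays and 5.09, 5.25 and 5.26 on the mbd11 arrays, against 3.98, 3.57 and 3.41 in wild type. With values under 4 raised to 4, the smallest of the 3 differences was 0.98 for AT5G53820, so it no longer met the rule, and 1.16 for AT3G29970. For WRKY53 it was 0.87, also under the threshold. AT5G05600, a 2-oxoglutarate oxygenase that hydroxylates jasmonic acid, AT1G14200, a RING finger protein, and AT1G52200, of the PLAC8 family, were higher by 1.02 to 1.68 across the 3 mutants.

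Among the 9 genes with no role given, AT1G65500 had the largest smallest difference of all named members. It read 7.55, 7.39 and 7.96 in mbd4, 7.87, 7.72 and 7.51 in mbd6, with 7.52, 8.37 and 7.14 in mbd11, against 5.76, 5.57 and 5.83 in wild type. The means were 3.77, 3.94 and 3.89 times wild type in mbd4, mbd6 and mbd11, and the ranges of the mutants overlapped. AT1G24575 also had overlapping mutant ranges, with 8.21, 8.15 and 8.60 on the mbd4 arrays, 8.96, 8.36 and 8.25 on the mbd6 arrays and 8.05, 9.43 and 8.42 on the mbd11 arrays, against 6.54, 6.85 and 6.85 in wild type. AT1G19380 was more even across arrays, with 8.0, 8.08 and 8.07 in mbd4, 8.18, 8.09 and 8.19 in mbd6, with 8.41, 7.71 and 8.34 in mbd11, against 6.64, 6.66 and 6.60 in wild type. Its differences from wild type, 1.42, 1.52 and 1.52 with a standard error of 0.17 each, lay within 1 standard error of one another.

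AT5G20790 had 9.38, 9.32 and 9.15 on the mbd4 arrays, 10.27, 9.70 and 9.51 on the mbd6 arrays and 7.84, 9.34 and 8.35 on the mbd11 arrays, against 7.35, 7.09 and 7.39 in wild type. AT1G05575 had 5.47, 5.76 and 6.55 in mbd4, 6.52, 6.02 and 6.4 in mbd6, with 7.57, 7.19 and 7.71 in mbd11, against 4.86, 4.74 and 4.71 in wild type. AT5G03120 had 6.61, 6.55 and 6.85 on the mbd4 arrays, 7.14, 6.70 and 6.96 on the mbd6 arrays and 8.11, 8.23 and 7.65 on the mbd11 arrays, against 5.42, 5.65 and 5.66 in wild type. The last pair were highest on all 3 mbd11 arrays, while AT5G20790 had its highest mean in mbd6. AT4G39675 had its lowest mutant mean in mbd6, with 7.27, 7.47 and 7.90 in mbd4, 7.17, 7.02 and 6.87 in mbd6, with 7.18, 8.13 and 8.01 in mbd11, against 5.92, 5.91 and 5.98 in wild type. AT3G15630, with 9.60, 9.62 and 9.57 on the mbd4 arrays, 9.28, 9.32 and 9.34 on the mbd6 arrays and 8.90, 9.31 and 9.19 on the mbd11 arrays, against 7.89, 8.02 and 7.98 in wild type, had its highest mean in mbd4.

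**Figure D2:**
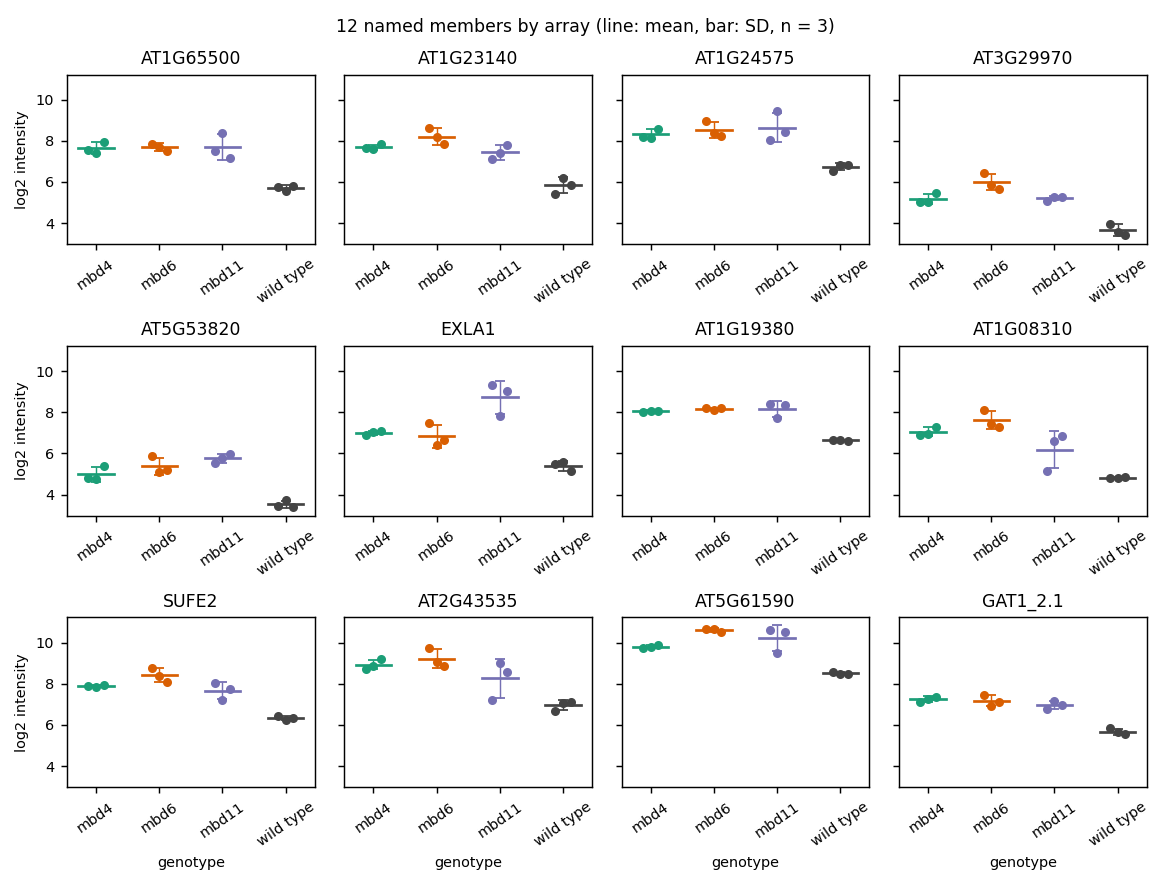
Log2 intensity of 12 named members, the ones with the largest smallest difference from wild type, in mbd4, mbd6, mbd11 and wild type. Points are arrays, lines are means and bars are SD (n = 3 each). Every mutant point lies above every wild-type point. The mbd11 points spread more than those of the other genotypes in several genes, among them AT1G08310, AT2G43535, EXLA1, AT1G24575 and AT5G61590. Over all probe sets the median SD was also highest in mbd11, at 0.353.

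The threshold at 1 cut through a continuous run of values. Just inside it lay AT5G18470, higher by 1.13, 1.54 and 1.00 in mbd4, mbd6 and mbd11, then WRKY53 with 1.01, 1.42 and 1.69 and AT1G14200 with 1.02, 1.37 and 1.68. Just outside lay AT3G43110 with 1.42, 1.87 and 0.997, AT5G25930, a receptor-like kinase, with 0.994, 1.26 and 1.12, and AT3G04210 with 1.34, 2.34 and 0.994. Another 5 probe sets met the threshold in all 3 mutants but had at least 1 mutant array within the wild-type range.

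Membership of 16 of the 27 named genes, and of 50 of the 76 probe sets, held when each of the 12 arrays was left out in turn. Without replicate 2 of mbd11, the smallest difference was 0.87 for OSM34, 0.91 for AT2G43535, 0.82 for AT5G20790 and 0.97 for AT5G19890, all under the threshold. Without replicate 3 of mbd4 it was 0.84 for AT1G05575 and 0.98 for AT3G15770. AT5G18470, AT5G05600, WRKY53, AT1G52200 and AT1G14200 each fell under the threshold in 3 of the 12 leave-outs, with values of 0.87 to 0.98.

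Differences between the mutants were tested, since the rule set no direct limit on them. The values tested are among those that chose the members. For mbd6 against mbd4, 0.950% of all probe sets were higher and 1.10% lower by limma at an adjusted p under 0.05. Of the 76 members, 3 were higher and 3 lower, or 3.95% each. The median difference of members was 0.29, against 0.01 over all probe sets. OSM34 was the only named member among the 6, higher in mbd6 than in mbd4 by 0.75 with a standard error of 0.17 and an adjusted p of 0.0411 by limma, and higher on all 3 mbd6 arrays than on any mbd4 array. That call was lost on leaving out any array of mbd4, mbd6 or wild type, with adjusted p of 0.0708 to 0.169 and a difference of 0.66 to 0.85, as well as with the replicate block (adjusted p = 0.0764), after either rescaling of the arrays (adjusted p = 0.0696 and 0.0590) and with the control 3' to 5' difference as a covariate (adjusted p = 0.0600). The count depended on the mbd11 arrays, whose spread enters the shared estimate: with all 3 left out, 27 members were called, 19 higher and 8 lower, as were 10.9% of all probe sets, and without replicate 2 of mbd11 alone, 22 members, 16 higher and 6 lower, and 7.20% of all probe sets.

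For mbd11 against mbd4, 22.5% of all probe sets were higher and 19.8% lower. Of the members, 20 were higher (26.3%) and 15 lower (19.7%), near the shares of all probe sets, and the median difference was 0.06, against 0.13 over all probe sets. After quantile normalization between arrays, which takes the median of all probe sets to 0.02, the split was 24 higher and 10 lower. In that fit 34.3% of all probe sets were called in either direction. With the 3' to 5' difference of the control transcripts as a covariate the split was 13 higher and 14 lower. The share of all probe sets called in either direction was then 32.6%. Which direction had more member calls depended on the setting. EXLA1 was higher in mbd11 by 1.71 (SE 0.34, adjusted p = 0.00205 by limma), AT1G05575 by 1.57 (SE 0.25, adjusted p = 0.000396), AT5G03120 by 1.33 (SE 0.18, adjusted p = 0.000128) and AT1G72060 by 1.25 (SE 0.20, adjusted p = 0.000474). With that covariate the difference of AT1G05575 was 0.96 (adjusted p = 0.0107 by limma). In EXLA1, AT1G05575, AT5G03120 and AT1G72060 every mbd11 array lay above every mbd4 array. OSM34 was lower by 0.92 on the log2 scale (SE 0.17, adjusted p = 0.00106 by limma), AT5G19890 by 0.67 (SE 0.18, adjusted p = 0.0104) and AT3G15630 by 0.46 (SE 0.13, adjusted p = 0.0132), again with no overlap between mbd11 and mbd4 arrays. The calls of AT5G19890 and AT3G15630 were lost after quantile normalization (adjusted p = 0.0739 and 0.153 by limma), in fits to only the 6 arrays compared (adjusted p = 0.0737 and 0.108) and with arrays weighted by genotype spread (adjusted p = 0.0705 and 0.0937). That of AT3G15630 was also lost with each array centred on its median (adjusted p = 0.0643) or with the control 3' to 5' difference as a covariate (adjusted p = 0.0544). Of the other named members, 4 were higher and 0 lower.

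For mbd11 against mbd6, 22.5% of all probe sets were higher and 19.9% lower, whereas 17 members were higher (22.4%) and 24 lower (31.6%). The median difference of members was -0.17, against 0.13 over all probe sets. The split was 19 higher and 19 lower after quantile normalization and 19 higher and 20 lower with each array centred on its median. Those scalings took the median difference of all probe sets to 0.03 and 0.26. The larger number of lower calls thus depended on the scaling. The shares of all probe sets called in those fits are not given here, so nothing particular to the members is read from the splits. EXLA1 was higher in mbd11 by 1.88 (adjusted p = 0.00109 by limma), AT1G05575 by 1.18 (adjusted p = 0.00255) and AT5G03120 by 1.06 (adjusted p = 0.000566). AT4G39675 was higher by 0.75 (adjusted p = 0.0213 by limma), and this call was lost without replicate 2 of mbd6 (adjusted p = 0.0550), replicate 3 of mbd6 (adjusted p = 0.0759) or replicate 3 of mbd11 (adjusted p = 0.0585). OSM34 fell by 1.67 in mbd11 relative to mbd6 (adjusted p = 1.73e-05 by limma), AT1G08310 by 1.42 (adjusted p = 0.00704), AT5G20790 by 1.32 (adjusted p = 0.005) and AT5G19890 by 1.14 (adjusted p = 0.000363). Of the other named members, 2 were higher and 4 lower. The 3' to 5' difference of the control transcripts was higher on every mbd11 array than on every mbd6 array, and with it as a covariate 26 members were called, 6 higher and 20 lower, against 25.5% of all probe sets. In that fit the calls of EXLA1 (1.51, adjusted p = 0.0615 by limma), AT1G05575 (0.42, adjusted p = 0.241), AT4G39675 (0.26, adjusted p = 0.544) and AT5G20790 (-1.06, adjusted p = 0.126) were lost. Weighted arrays ended those of AT1G05575 (adjusted p = 0.0511 by limma) and AT4G39675 (adjusted p = 0.0779), and a fit to the 6 arrays alone those of AT1G08310 (adjusted p = 0.0535) and AT4G39675 (adjusted p = 0.0817).

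**Figure D3:**
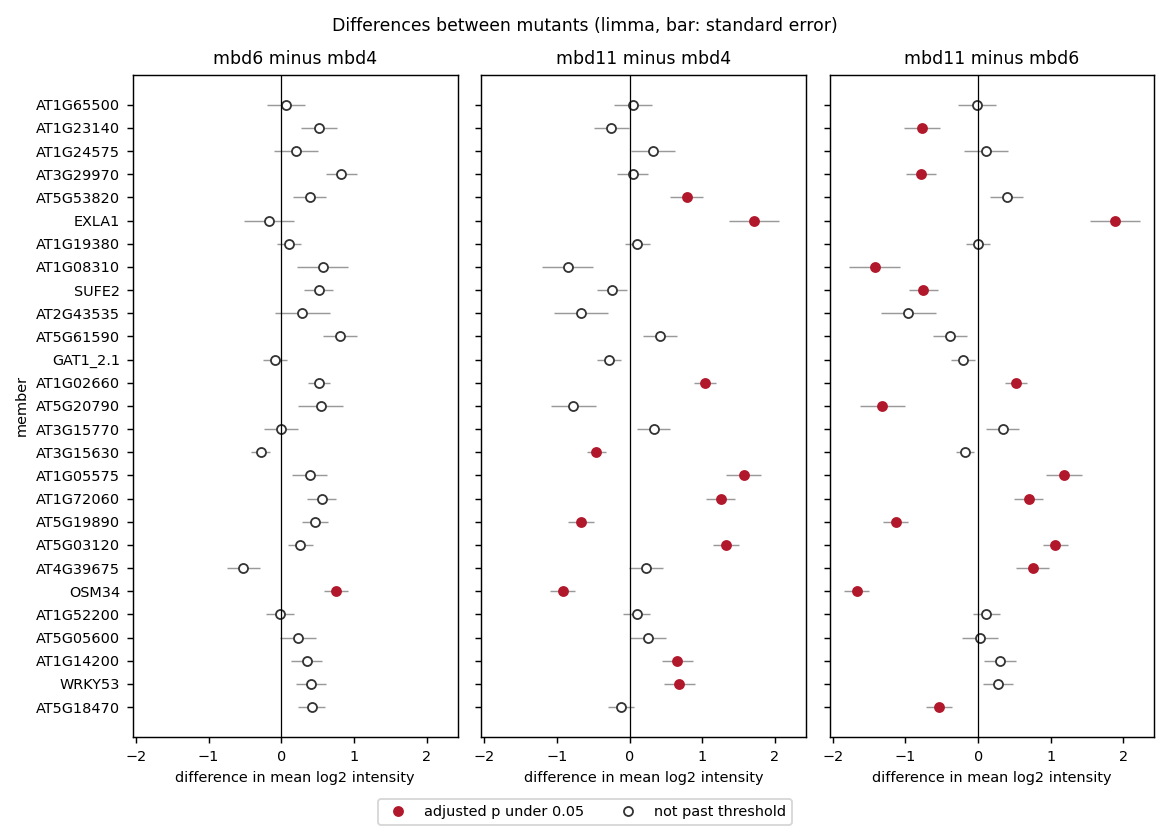
Difference in mean log2 intensity between each pair of mutants for the 27 named members, with the standard error as a bar and filled points at an adjusted p under 0.05 by limma. Filled points are 1 in the first panel, 11 in the second and 14 in the third, and OSM34 and EXLA1 lie farthest apart in the panels with mbd11.

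No pair of mutants was called different for 22 members, of which 9 are named: AT1G65500, AT1G24575, AT1G19380, AT2G43535, AT5G61590, GAT1_2.1, AT3G15770, AT1G52200 and AT5G05600. That a difference missed the threshold does not show that the levels were equal. By means, mbd4 was the highest mutant for 12 members, mbd6 for 33 and mbd11 for 31, and the lowest for 32, 13 and 31. In 6, 15 and 9 members all arrays of mbd4, mbd6 or mbd11 lay above those of both other mutants. Shares over all probe sets were not computed for the counts in this paragraph, so nothing particular to the members is read from them.

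Members varied more within mbd6 than probe sets did in general. The same arrays chose the members, so the spread is given as a description. The median SD over 3 arrays was 0.154 for members in mbd4, 0.262 in mbd6 and 0.422 in mbd11, against 0.136 in wild type, and over all probe sets the medians were 0.134, 0.118, 0.353 and 0.112 in the same groups. In 65 of 76 members (85.5%) the SD was larger in mbd6 than in wild type, against 51.9% of all probe sets. Replicate 1 was the highest mbd6 array in 60 members (78.9%), against 30.6% of all probe sets, and replicate 3 the highest mbd4 array in 55 (72.4%), against 45.5%. In mbd11 the highest array was replicate 1, 2 or 3 in 23, 28 and 25 members.

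**Figure D4:**
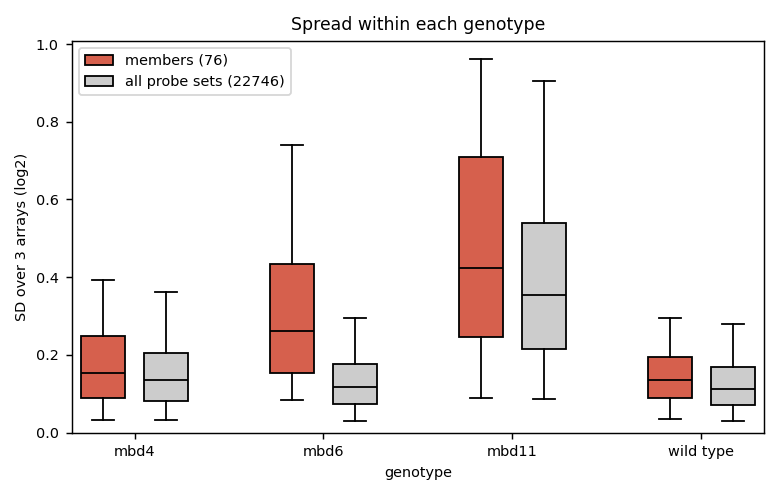
SD over the 3 arrays of a genotype, on the log2 scale, for members (red) and all probe sets (grey) in mbd4, mbd6, mbd11 and wild type. Boxes span the quartiles with the median inside and whiskers the 5th to 95th percentiles. The boxes are farthest apart in mbd6, where the medians are 0.262 for members and 0.118 for all probe sets.

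Taken array by array, the median member lay 1.45, 1.47 and 1.70 above the wild-type mean on replicates 1, 2 and 3 of mbd4, 1.98, 1.65 and 1.67 above it in mbd6 and 1.48, 1.76 and 1.75 above it in mbd11, against 0.01, 0.04 and -0.03 on the wild-type arrays. The 3' to 5' difference of the controls, given above, was high on replicate 3 of mbd4 and on all mbd11 arrays. In mbd6, with 1.30, 1.2 and 1.25, and on replicates 1 and 2 of mbd4, with 1.08 and 1.15, it was within or under the wild-type values of 1.17, 1.5 and 1.18. The lowest member medians of the 9 mutant arrays were those of replicates 1 and 2 of mbd4, and the highest was that of replicate 1 of mbd6. With replicate 3 of mbd4 and replicate 3 of mbd11, the arrays with the highest such difference in each of those mutants, both left out, 67 probe sets met the rule, 63 of them among the 76.

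**Figure D5:**
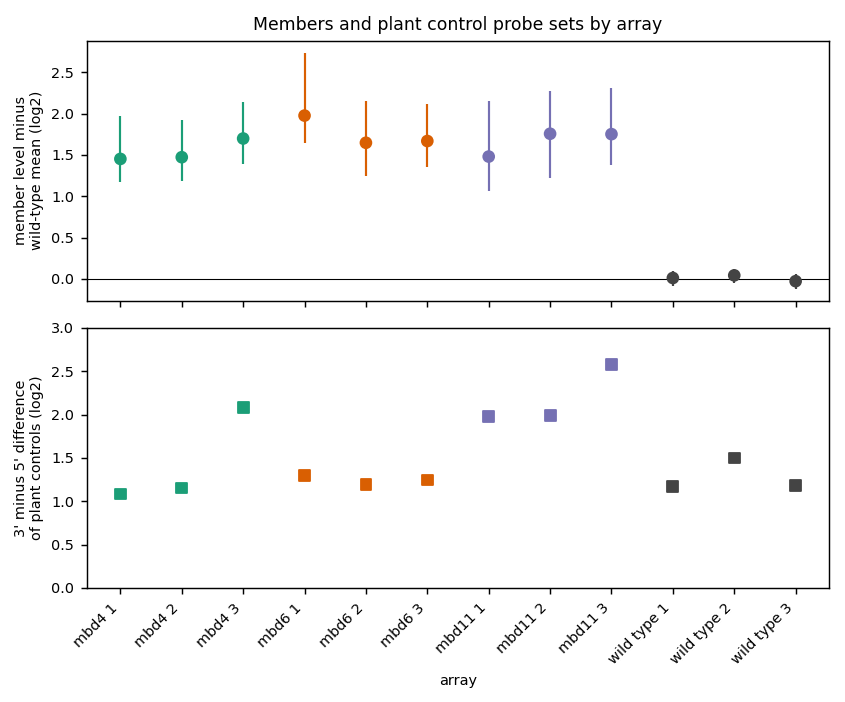
Top, median over the 76 members of the log2 level minus the wild-type mean on each array, with the quartiles as bars. Bottom, the 3' minus 5' log2 difference of the plant control probe sets on the same arrays. Member medians are 1.45 to 1.98 on the 9 mutant arrays, which the rule required to be raised, and -0.03 to 0.04 on the wild-type arrays. The control difference is over 1.9 on 4 mutant arrays. Whether it had a part in the member levels was not tested.

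Pathway lists, chosen with earlier results of these data known, held few of the members. Of 181 genes on 10 lists, 53 were measured by a probe set of 1 gene, and 2 of those were members, WRKY53 on the salicylate defence list and EXLA1 on the cell wall list. The rule chose both for being higher, and each is included in the higher counts of its list below in every mutant. The counts below are by limma, for which 0.769%, 2.91% and 19.7% of all probe sets were lower in mbd4, mbd6 and mbd11, beside the shares of higher probe sets given above. Of 8 touch and calcium genes, which respond within minutes to mechanical or calcium signals, 0, 4 and 8 were higher in mbd4, mbd6 and mbd11 with 0 lower, and the medians were 0.38, 0.77 and 1.58. AT4G27280, a calcium-binding EF-hand protein of that list, differed by 0.03 in mbd4, 1.45 in mbd6 and 3.48 in mbd11, so it was no member because of mbd4.

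Of 3 salicylate defence genes, 1, 2 and 3 were higher and 0 lower, and GRX480, a glutaredoxin induced by salicylate, differed by 0.31, 0.99 and 1.03. Of 7 low-oxygen genes, on a list that holds none of the genes left out by name, 2, 1 and 5 were higher and 0 lower, with medians of 0.58, 0.52 and 1.06. Among them AT3G03270 came nearest to membership, with differences of 1.27, 0.62 and 0.98. Oxidative stress genes were higher in 2, 2 and 5 of 9 cases with 0 lower, and heat shock genes in 1, 0 and 5 of 6 cases with 0 lower.

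Abscisic acid and cold genes, which protect against drought and low temperature, were the list with the most lower calls in mbd4 and mbd6. Of 6, 0 were higher and 3 lower in mbd4, 0 higher and 2 lower in mbd6, and 4 higher and 0 lower in mbd11. Of 5 flavonoid genes, 1, 1 and 0 were higher and 0, 0 and 1 lower. Of 9 cell wall genes, 2, 2 and 5 were higher and 0, 1 and 0 lower. AT4G22470, of that list, differed by 2.66, 0.81 and 0.89, far from wild type in mbd4 but under the rule's threshold in the other mutants. The jasmonate and ethylene list and the glucosinolate list had 0 measured genes.

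The named members were spread over the chromosomes, with 12 on chromosome 1, 1 on chromosome 2, 4 on chromosome 3, 3 on chromosome 4 and 7 on chromosome 5. Chromosome 1 held 44.4% of them, against 25.5% of all probe sets of 1 gene, and chromosome 2 held 3.70%, against 16.3%. The closest pair was AT3G15630 and AT3G15770 with 14 protein-coding genes between them, and the next closest, AT5G19890 and AT5G20790, had 87. Both genes of the closest pair lie by MBD11 (AT3G15790), the gene mutated in mbd11: AT3G15770 has 1 protein-coding gene between it and MBD11, and AT3G15630 has 16. AT3G15770 gave 6.88, 6.8 and 7.46 in mbd4, 7.16, 7.05 and 6.91 in mbd6, with 7.42, 6.96 and 7.75 in mbd11, against 5.73, 6.20 and 5.64 in wild type. The rule required it to be higher in all 3 mutants, so nothing about its position is read from these levels. The member nearest to MBD6 had 230 genes between and the one nearest to MBD4 had 1789.

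Of 31 measured genes directly next to members, 0 were at least 1 above wild type in mbd4, 0 in mbd6 and 6 in mbd11, where 6 of 31 is 19.4%. Of all probe sets of 1 gene, 0.807%, 1.56% and 5.60% were. The adjacent genes had median differences of -0.09, 0.00 and 0.50 in mbd4, mbd6 and mbd11, against -0.04, -0.04 and 0.19 over all probe sets of 1 gene. In the same mutants, 12, 16 and 22 of the 31 lay above the wild-type mean. The share of all probe sets above that mean was not computed, so nothing is read from these last counts. AT1G65490, next to AT1G65500, differed by -1.09 in mbd4, -0.99 in mbd6 and 0.55 in mbd11, and AT3G15780, between AT3G15770 and MBD11, by -0.34, -0.27 and 1.01. Member genes were shorter than most, with a median of 1246 bases, against 2117 bases for all probe sets of 1 gene, and a range of 466 bases (AT4G39675) to 3260 bases (AT1G02660). Of the 27, 8 were under 1000 bases (29.6%), against 13.2% of all.

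For the 47 of 76 members with no gene assigned, the smallest differences from wild type, which the rule required to be at least 1, were 1.00 to 2.36 with a median of 1.27, against a median of 1.23 for the named members, and the 5 largest of all were among them. The probe set 266142_at read 7.06, 7.17 and 6.87 on the mbd4 arrays, 8.40, 6.99 and 6.88 on the mbd6 arrays and 7.29, 7.09 and 7.02 on the mbd11 arrays, against 4.51, 4.93 and 4.59 in wild type. The probe set 259481_at differed most between mbd6 and mbd4, with 7.82, 7.73 and 8.07 in mbd6 and 5.83, 5.77 and 5.83 in mbd4, a difference of 2.07 (adjusted p = 0.000219 by limma). In the other direction, 246114_at had 10.18, 10.23 and 10.30 in mbd6 and 11.44, 11.35 and 11.45 in mbd4, a difference of -1.17 (adjusted p = 0.000249). The functions named above therefore cover only the probe sets of 1 gene, which are 35.5% of the members, against 59.4% of all probe sets.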

How the data were processed

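Total RNA of whole seedlings was biotin-labelled by the 3' IVT protocol, per the labels' protocols. The deposited values are log2 intensities made by the authors with RMA in R 2.11, per the submitters' processing notes. The table held 22810 probe sets on 12 arrays, 0 values were missing and no array was the same as another. The 64 control probe sets were left out of tests. For scan dates and labelling batches the sources used here give nothing. Arrays give no read depth, and 3 a group limits the precision.

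The members, gene lists and tests were chosen with earlier results of these data known. A rule on the size of differences named the genes: the 20 members of 1 gene with the largest smallest difference (array values for the first 12), the 4 largest called differences in each direction for each pair of mutants, 3 genes inside and outside the threshold, and up to 6 genes of a role class or neighbouring pair. Other genes with values (markers, list genes and adjacent genes, and 3 unassigned probe sets) were added after their values were seen.

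limma 3.58.1 in R 4.3.3 was run on all 22746 probe sets with 1 mean per genotype and all 12 arrays (degrees of freedom: 8 residual, 4.43 prior). Tests were two-sided, with p-values adjusted by the Benjamini-Hochberg method within each comparison, with 0.05 as threshold. The rule and the fit were tested on simulated data. Same-numbered replicates did not deviate together (18 correlations, -0.38 to 0.216), so no block was used.

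Gene names came from the platform annotation and RefSeq's TAIR10.1 table, which matched all 27 named members. Neighbours were taken from the order of protein-coding genes by start coordinate in that table, and distances in bases were not used. No sequences were used here.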

Additional observations from a re-analysis of the deposited data

Results flagged for a closer look

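Between mutants, 16 differences of 10 named genes passed the threshold of limma in the main fit, among the largest of each comparison. In that fit these genes, though higher in all 3 mutants, differed between mutants. For mbd6 minus mbd4 this was OSM34, 0.75. For mbd11 minus mbd4 they were EXLA1 (1.71), AT1G05575 (1.57), AT5G03120 (1.33), AT1G72060 (1.25), OSM34 (-0.92), AT5G19890 (-0.67) and AT3G15630 (-0.46). For mbd11 minus mbd6 they were EXLA1 (1.88), AT1G05575 (1.18), AT5G03120 (1.06), AT4G39675 (0.75), OSM34 (-1.67), AT1G08310 (-1.42), AT5G20790 (-1.32) and AT5G19890 (-1.14), all on the log2 scale. Of the 16 differences, 8 passed under every alternative setting, and none of these 8 was of AT3G15630, AT4G39675, AT1G08310 or AT5G20790. The call of OSM34 for mbd6 minus mbd4 was lost in 13 of 22 alternatives. No group of these samples has more than 3 arrays, so single arrays were not tested as outliers.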

How the results depend on the processing

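Counts of members met the rule for 70 to 88 probe sets when 1 array was left out, at least 67 of them among the 76. A threshold of 0.8 gave 140 and a threshold of 1.2 gave 43. Other scalings, filters and limma in place of separated arrays gave 67 to 81. With the replicate number as a block, 77 probe sets met the rule, and 4 members were called between mbd6 and mbd4, 36 between mbd11 and mbd4 and 41 between mbd11 and mbd6. Leaving out 1 array gave 3 to 22, 28 to 48 and 30 to 47 members called in those comparisons. Weighting each array by its genotype's spread gave counts of 27, 15 and 20, and fitting only the 6 arrays compared gave 22, 20 and 24. The share of all probe sets called moved too. For mbd6 against mbd4 it was 2.05% in the main fit and 0.690% to 7.20% with 1 array left out. The block gave 1.38%, weights 11.0% and the 6 arrays 7.82%. For mbd11 against mbd4 it was 42.3% in the main fit and 30.2% to 49.1% with 1 array left out. The block gave 40.6%, weights 22.7% and the 6 arrays 19.8%. For mbd11 against mbd6 it was 42.4% in the main fit. The shares for that pair with the block, weights, the 6 arrays or 1 array left out are not given here. Nothing particular to the members is read from these counts. With the mbd11 arrays left out, 27 members were called between mbd6 and mbd4. With the 3' to 5' difference as a covariate, 26 were called between mbd11 and mbd6. The alternative without replicate 3 of mbd4 and of mbd11 was chosen after seeing the data. The cause of these shifts was not tested. Of the 16 single-gene differences, 8 passed the threshold under every alternative and 0 reversed. The largest class of roles had 5 genes with only the brightest probe set of each gene too. The 27 named members were already 27 distinct genes, so that setting says little about the classes. Median centring moved the median of all probe sets for mbd11 minus wild type to 0.22, against 0.12 as deposited. A count of promoter motifs was planned and not run, since no sequences were used. Probe sets near the low end of the scale are measured least surely.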
